A study of Mus musculus with 6 samples.

Results

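The genes described here are 10 AP-1 and immediate early genes, chosen by name: the Fos family (Fos, Fosb, Fosl1, Fosl2), the Jun family (Jun, Junb, Jund), and Atf3, Egr1 and Dusp1. Each was read from the 1 probe set that named that gene alone, out of 19938 genes measured in this way, and all 10 passed the filter on dim genes that left 13292 genes for testing. The data were RNA levels on Affymetrix arrays in Cxcl12-abundant reticular (CAR) cells, marrow stromal cells that make much of the chemokine Cxcl12. CAR cells that Dmp1-Cre had targeted (3 arrays) were compared with CAR cells that it had not (3 arrays), to ask how the targeted cells differ from the rest. Both groups came from the femur and tibia marrow of C57BL/6 mice aged 7 weeks, and the control cells carried the same Dmp1-Cre transgene and the same single Cxcl12-gfp allele as the targeted cells. In Dmp1-Cre the recombinase is under control elements of Dmp1, whose protein belongs to the matrix made by osteocytes and late osteoblasts, so the targeted group is whatever share of CAR cells had that activity at any time, and the reporter that marked targeting is not given in the sources used here. The labels describe 3 mice, each giving 1 sample of a kind, but they do not say whether same-numbered arrays of both groups came from 1 mouse.

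AP-1 is a transcription factor made of pairs of bZIP proteins, usually a Fos family member with a Jun family member, or a Jun pair. Its genes, with Egr1 and Atf3, are immediate early genes: growth factors, cytokines and stress raise their transcription within minutes through MAP kinases, the serum response factor and CREB, with no need for new protein. Dusp1 encodes a phosphatase that switches MAP kinases off again. In bone, Fos is needed for osteoclasts, and Fosl1, Fosl2, Jun and Junb act in osteoblasts. The same genes are also known to be induced while tissue is dissociated and cells are sorted, so their spread between arrays is a usual thing to look at in sorted cells.

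Promoter sequences are shown for the 3 genes whose arrays separated the groups (Fos, Fosb, Dusp1) and for Jun, the gene that ranged most widely between arrays. Each runs from 250 bases before the transcription start to 50 bases from it, 5′ to 3′ on the gene's strand, as RefSeq gives it on GRCm38.p6. The windows are chr12:85473640-85473939 on the plus strand for Fos, chr7:19309996-19310295 on the minus strand for Fosb, chr17:26508423-26508722 on the minus strand for Dusp1 and chr4:95052173-95052472 on the minus strand for Jun. Capitals mark TGACG, the core of the cAMP response element that CREB and ATF proteins bind, on either strand. They also mark TGACNTCA, a looser pattern that includes the longer form of that element, TGACGTCA.
Fos: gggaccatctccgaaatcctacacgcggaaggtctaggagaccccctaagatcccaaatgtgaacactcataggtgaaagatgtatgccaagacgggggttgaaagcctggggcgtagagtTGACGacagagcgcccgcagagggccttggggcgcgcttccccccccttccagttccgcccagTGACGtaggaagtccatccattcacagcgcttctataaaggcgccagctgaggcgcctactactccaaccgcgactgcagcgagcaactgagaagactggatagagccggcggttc
Fosb: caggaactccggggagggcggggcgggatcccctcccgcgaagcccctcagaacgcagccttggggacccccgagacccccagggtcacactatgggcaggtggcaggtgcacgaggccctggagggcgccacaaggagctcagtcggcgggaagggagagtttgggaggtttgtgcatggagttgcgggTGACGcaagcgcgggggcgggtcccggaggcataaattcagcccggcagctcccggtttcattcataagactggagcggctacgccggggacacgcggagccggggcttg
Dusp1: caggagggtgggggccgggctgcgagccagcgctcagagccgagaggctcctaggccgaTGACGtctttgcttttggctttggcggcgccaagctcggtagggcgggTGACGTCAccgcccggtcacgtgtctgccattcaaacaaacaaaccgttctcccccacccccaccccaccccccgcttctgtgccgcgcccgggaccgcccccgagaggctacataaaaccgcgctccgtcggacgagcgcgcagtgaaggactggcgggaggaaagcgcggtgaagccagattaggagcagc
Jun: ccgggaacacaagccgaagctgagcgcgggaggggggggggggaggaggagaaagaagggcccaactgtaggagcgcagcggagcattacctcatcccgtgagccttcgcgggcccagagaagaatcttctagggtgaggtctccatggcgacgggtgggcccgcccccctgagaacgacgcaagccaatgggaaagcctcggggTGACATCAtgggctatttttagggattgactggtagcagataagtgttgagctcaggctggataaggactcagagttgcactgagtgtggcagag

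The RefSeq table held a promoter for 8 of the 10 genes, all but Fosl1 and Egr1. TGACG was present in 5 of the 8 on either strand (Atf3, Dusp1, Fos, Fosb and Junb), against 20.8% of all 32851 promoters of the same length. In Fos it lay 129 to 125 and 66 to 62 bases before the start, the latter being the well-known response element of that promoter, and in Fosb it lay 60 to 56 bases before the start. TGACNTCA, searched on both strands, was found in Dusp1 as TGACGTCA, which holds TGACG on both strands, and in Jun as TGACATCA, 45 to 38 bases before the start. It was present in 8.83% of all promoters. TGANTCA, a looser pattern that includes the AP-1 site, was in none of these 8 windows and in 7.81% of all promoters. The CArG box of the serum response factor was also in none of the 8 and in 1.63% of all promoters. TATAAA was in Fos and Junb, against 13.6% of all. These matches describe the letters of the windows and were looked up with the expression values known. Sites further upstream or within the gene were not searched, so a motif missing here may lie outside the window.

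Of the 10 genes, 9 had a lower mean in targeted cells and 1, Fosl1, had a slightly higher one, and none passed the test. The median log2 difference was -0.21, against -0.005 over all genes tested, of which 51.1% had a lower mean in targeted cells. Every member had an adjusted p of 0.9998 (limma, Benjamini-Hochberg over all 13292 genes), and 0 of 10 had an unadjusted p under 0.05. Over all genes 0 were called at an adjusted p under 0.05 (0%), and 4.77% had an unadjusted p under 0.05. The 3 targeted arrays lay below the 3 non-targeted arrays for Fos, Fosb and Dusp1, so 3 of 10 genes did not overlap in that direction, where 5.76% of all genes did so. In all 3 the gap between the groups was 0.041 to 0.055 on the log2 scale, smaller than the SD of the non-targeted arrays. With other scalings of the arrays the groups of Fos and of Dusp1 could overlap, as described under processing below.

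**Figure D1:**
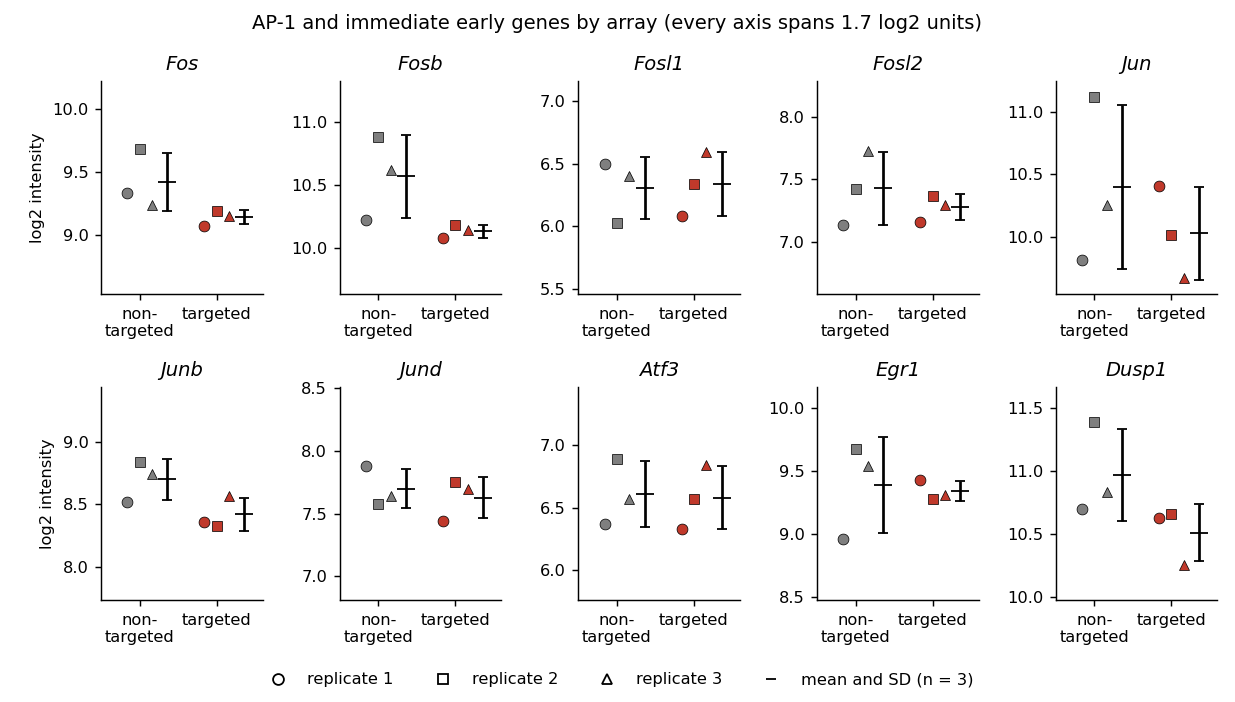
Log2 intensity of the 10 genes on each of the 6 arrays, 1 panel per gene with the same axis span. Grey points are non-targeted and red points targeted arrays, marker shapes give the replicate number, and bars give the mean and SD of 3 arrays. Non-targeted replicate 2 was the highest array for 7 of the 10 genes, and the targeted arrays of Fos, Fosb and Egr1 lay close together.

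Fos encodes the founding member of its family, a labile protein that must pair with a Jun protein to bind DNA. Its log2 intensity was 9.33, 9.68 and 9.24 in non-targeted replicates 1 to 3 and 9.07, 9.19 and 9.15 in targeted replicates 1 to 3. All targeted arrays were below all non-targeted ones, but the lowest non-targeted array was only just above the highest targeted one. The means were 9.42 ± 0.23 and 9.14 ± 0.06 (SD, n = 3 each), and the log2 difference was -0.28 (SE 0.17, 95% interval -0.66 to 0.10), a 1.21-fold lower level that did not pass. Fosb, the member of the family whose splice form accumulates on repeated stimulation, had a wider gap between the means than Fos. It was at 10.22, 10.88 and 10.62 in non-targeted cells and at 10.08, 10.18 and 10.14 in targeted cells, a log2 difference of -0.44 (SE 0.19, 95% interval -0.89 to 0.005, 1.36-fold lower). Non-targeted replicate 1 lay close to the targeted arrays and the other two non-targeted arrays well above them.

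Fosl1 and Fosl2 encode Fra-1 and Fra-2, Fos relatives that accumulate later and last longer after a stimulus. Fosl1 was at 6.50, 6.03 and 6.40 in non-targeted and 6.08, 6.34 and 6.59 in targeted cells, close to the filter on dim genes at 6.00, with groups that overlapped fully. Its log2 difference was 0.03 (SE 0.20, 95% interval -0.44 to 0.49). Fosl2 was at 7.14, 7.42 and 7.73 in non-targeted and 7.16, 7.37 and 7.30 in targeted cells. The targeted values lay inside the non-targeted range, and the log2 difference was -0.15 (SE 0.19, 95% interval -0.58 to 0.28). Neither gene separated the populations, and intervals of this width leave room for differences of the size seen in Fosb.

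Jun, the main partner of the Fos proteins, ranged most of the 10 genes. It was at 9.82, 11.12 and 10.26 in non-targeted cells and at 10.41, 10.02 and 9.67 in targeted cells, a 2.73-fold span from the lowest to the highest array. The groups overlapped, with the second highest value in targeted replicate 1 and the second lowest in non-targeted replicate 1. The log2 difference was -0.37 (SE 0.34, 95% interval -1.16 to 0.43), and without non-targeted replicate 2 it was -0.01. Junb, which can oppose Jun at some promoters and is active in osteoblasts, was at 8.52, 8.84 and 8.74 against 8.36, 8.33 and 8.57. Only targeted replicate 3 reached just into the non-targeted range, and the log2 difference was -0.28 (SE 0.16, 95% interval -0.65 to 0.09). Jund, the member that is expressed most steadily and responds least to stimuli, was at 7.88, 7.58 and 7.64 against 7.44, 7.75 and 7.70. These arrays overlapped, with a log2 difference of -0.07 (SE 0.16, 95% interval -0.45 to 0.31).

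Atf3, a stress-induced bZIP factor that pairs with Jun proteins and often represses, was at 6.37, 6.89 and 6.57 in non-targeted and 6.33, 6.57 and 6.84 in targeted cells. The 2 groups covered nearly the same range, and the log2 difference was -0.03 (SE 0.20, 95% interval -0.50 to 0.44). Egr1, a zinc finger factor that is not part of AP-1 but is induced by the same kinases, was at 8.96, 9.68 and 9.54 against 9.43, 9.28 and 9.31. Here non-targeted replicate 1 was the lowest of all arrays and the other two non-targeted arrays were the highest, so that the means, 9.39 ± 0.38 and 9.34 ± 0.08 (SD, n = 3 each), hardly differed (log2 difference -0.05, 95% interval -0.54 to 0.44). Dusp1 was at 10.70, 11.39 and 10.83 against 10.63, 10.66 and 10.25. No targeted array reached the lowest non-targeted one, and the log2 difference was -0.46 (SE 0.22, 95% interval -0.98 to 0.06, 1.38-fold lower), the largest in size among the 10 genes in this fit.

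**Figure D2:**
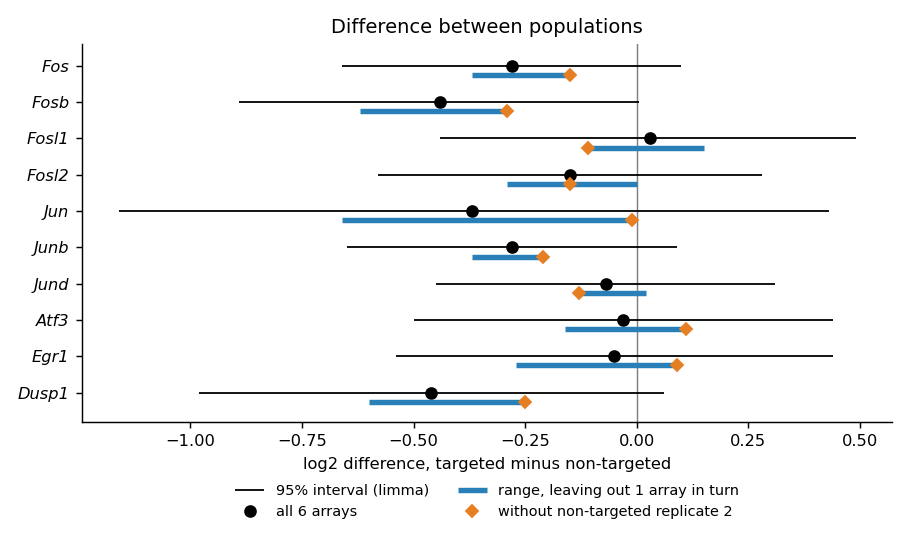
Log2 difference, targeted minus non-targeted, for each gene. Black points and lines give the fit over 6 arrays with its 95% interval, blue bars the range when 1 array is left out in turn and orange diamonds the value without non-targeted replicate 2. All 10 intervals include 0, and the diamond lies at the end of the blue bar nearest to 0 for Fos, Fosb, Jun, Junb and Dusp1.

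The size of these differences rested in good part on 1 array. Non-targeted replicate 2 was the highest of the 6 arrays for 7 of the 10 genes (Fos, Fosb, Jun, Junb, Atf3, Egr1 and Dusp1), where it was the highest for 21.4% of all genes tested. The mean deviation of the 10 genes from their own means over the 6 arrays was 0.31 on that array, 0.11 in non-targeted replicate 3, -0.10 in non-targeted replicate 1 and -0.15, -0.08 and -0.09 in targeted replicates 1 to 3. Non-targeted replicate 1 therefore stood with the targeted arrays. Without non-targeted replicate 2 the median log2 difference of the 10 genes was -0.14 and 8 of 10 were lower. Fos then differed by -0.15, Fosb by -0.29 and Dusp1 by -0.25. The groups of these 3 genes could not come to overlap, because the array left out was the highest of the 6 for each. Egr1 and Atf3 turned to 0.09 and 0.11, and Fosl1 turned to -0.11.

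Leaving out non-targeted replicate 1 moved the values away from 0, except for Jund, which went from -0.07 to 0.02. Without that array the log2 difference was -0.62 for Fosb, -0.60 for Dusp1, -0.66 for Jun, -0.29 for Fosl2 and -0.27 for Egr1, and the median of the 10 genes was -0.31. Without non-targeted replicate 3 the median was -0.18, Fosl2 was close to 0 and Egr1 turned to 0.02. Xist, the RNA that coats the inactive X chromosome, was at 11.31 or above on both arrays numbered 1 and at 5.64 to 5.88 on the other 4 arrays, so the mice of the arrays numbered 1 differed from the others in sex. Between the 2 arrays with high Xist, targeted minus non-targeted was -0.26 for Fos, -0.14 for Fosb, -0.07 for Dusp1, 0.59 for Jun and 0.47 for Egr1, from 1 array per group. On the 4 arrays with low Xist the difference was -0.29 for Fos, -0.59 for Fosb (SE 0.17), -0.66 for Dusp1 (SE 0.26), -0.85 for Jun (SE 0.32) and -0.32 for Egr1 (SE 0.15), and none of these passed (limma, adjusted over all genes). Jun and Egr1 thus pointed in opposite directions in the 2 kinds of array, a contrast that was not tested.

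The spread between arrays was unremarkable for most of the 10 genes. The SD within groups, as the percent of tested genes with a smaller SD, had a median of 52.3 over the 10 genes, and 5 of 10 lay above 50. Jun alone lay above 90, with an SD of 0.534 on the log2 scale and 91.8% of genes below it, against a median SD of 0.236 over all genes. Dusp1 (0.304, 67.2% of genes below), Egr1 (0.278, 61.3%), Atf3 (0.259, 56.6%) and Fosl1 (0.251, 54.6%) came next. At the other end were Jund (0.160, 24.0%) and Junb (0.150, 20.3%).

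The spread was uneven between the populations. The SD of the non-targeted arrays exceeded that of the targeted arrays for 8 of the 10 genes, where it did so for 41.9% of all genes, and Fosl1 and Jund were the exceptions. In targeted cells Fosb had an SD of 0.0496, Fos of 0.0585 and Egr1 of 0.0809, and 3.6%, 4.8% and 9.2% of tested genes had a smaller SD there. In non-targeted cells the same genes had SDs of 0.330, 0.230 and 0.384, with 78.5%, 59.0% and 84.5% of genes below them. Over the 10 genes the median of that percent was 69.9 in non-targeted and 27.0 in targeted cells. An SD from 3 arrays is imprecise, and the difference in spread was not tested.

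**Figure D3:**
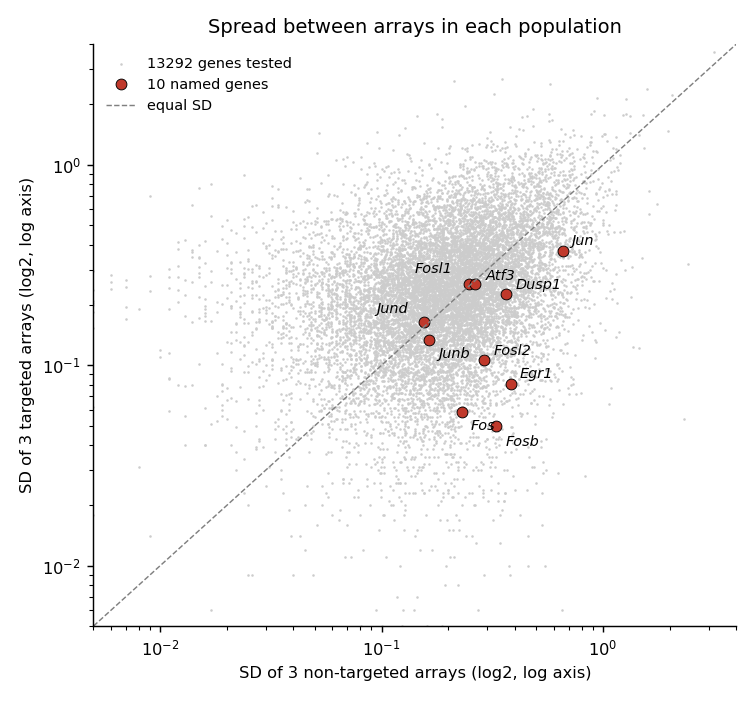
SD of the 3 targeted arrays against SD of the 3 non-targeted arrays, in log2 units on log axes, for the 13292 genes tested (grey) and the 10 genes (red). The dashed line marks equal SD. Of the 10 genes, 8 lie below the line, Fos, Fosb and Egr1 far below it, and Jun lies at the right edge with an SD of 0.657 in non-targeted cells.

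Other immediate early genes were also lower more often than higher. Of 39 listed, 36 were tested. In targeted cells 24 were lower and 12 higher, the median log2 difference was -0.15, and 0 were called. Zfp36, which encodes an RNA-binding protein that destabilises cytokine messages, differed by -0.42 (SE 0.21), and Klf6, a zinc finger factor, by -0.43 (SE 0.25). Trib1, a pseudokinase gene, differed by -0.42 (SE 0.18) and Mcl1, an anti-apoptotic gene, by -0.28 (SE 0.14), both without overlap. On the other side Nr4a2, an orphan nuclear receptor gene, differed by 0.24 (SE 0.14), also without overlap. Ier2, a usual sign of dissociation, was at 7.77, 8.97 and 8.61 in non-targeted and 8.04, 8.69 and 7.97 in targeted cells, overlapping with a difference of -0.21 (SE 0.33), and Nr4a1 differed by -0.14 (SE 0.18). Gadd45g, a stress-induced gene, ranged from 6.65 in non-targeted replicate 1 to 9.65 in non-targeted replicate 2, and was singled out for that range after its values were seen. Non-targeted replicate 2 was the highest array for 19 of these 36 genes, and without it the median was -0.07.

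Heat shock genes, chaperone genes that stress also induces, were lower for 12 of 14 tested members, with a median log2 difference of -0.23 and 0 called. Hspb1, a small heat shock protein gene, was at 7.74, 8.60 and 8.24 in non-targeted and 7.23, 7.38 and 7.20 in targeted cells. Its groups were clear of each other, with a log2 difference of -0.92 (SE 0.23, unadjusted p = 0.00410 and adjusted p = 0.7576 in limma). Hspa8, a constitutive chaperone gene, differed by -0.32 (SE 0.14) and Hsph1 by -0.27 (SE 0.14), both without overlap. Hspd1, the mitochondrial chaperonin gene, differed by 0.92 (SE 0.31) in the other direction, with overlapping arrays. Hspa1a, the stress-inducible chaperone that marks dissociated cells, was at 8.24, 8.41 and 8.80 against 7.99, 8.18 and 8.69, overlapping with a difference of -0.19 (SE 0.23). It has a near-identical copy, Hspa1b, and a probe set naming both was not tested. That probe set was at 8.15, 8.08 and 8.38 in non-targeted and 7.79, 7.95 and 7.99 in targeted cells, without overlap.

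Among the other bZIP genes that can pair with AP-1 proteins, 20 of 27 tested were lower and 7 higher. The median was -0.07 (-0.15 without targeted replicate 3, -0.13 without targeted replicate 2 and -0.04 without targeted replicate 1) and 0 were called. The small Maf genes Maff and Mafk, whose proteins lack an activation domain, differed by -0.55 (SE 0.18) and -0.30 (SE 0.15) without overlap. The third small Maf gene, Mafg, was added after its values were seen, and its arrays overlapped, with a difference of -0.02 (SE 0.21). Atf7, a close relative of Atf2, was at 10.62, 10.77 and 10.72 against 10.46, 10.14 and 10.12, a difference of -0.46 (SE 0.16) without overlap. Atf6, a sensor of endoplasmic reticulum stress, differed by 0.41 (SE 0.30). Of the kinase cascade and serum response genes upstream, 17 of 23 tested were lower, with a median of -0.15. Srf, the serum response factor itself, differed by -0.19 (SE 0.14), Rps6ka3, a kinase downstream of ERK, by -0.42 (SE 0.21), Map2k5 by -0.60 (SE 0.26) and Braf by 0.14 (SE 0.19). None of these was called, and without non-targeted replicate 2 the median of this list was -0.03.

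Genes of other MAP kinase phosphatases, relatives of Dusp1, were about as often higher as lower. Of 10 tested, 6 were higher and 4 lower, the median was 0.03 and the arrays of every gene overlapped. Dusp7 differed by -0.35 (SE 0.28), Dusp5 by -0.18 (SE 0.16), Dusp10 by -0.18 (SE 0.19) and Dusp8 by 0.10 (SE 0.14). The difference between Dusp1 and these genes was not tested.

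Genes known as AP-1 targets were mostly higher in targeted cells, where the AP-1 genes themselves were mostly lower. Of 18 tested, 14 were higher and 4 lower, the median was 0.17 (0.08 without targeted replicate 1, with 11 of 18 higher, and 0.27 and 0.30 without non-targeted replicate 2 and targeted replicate 3) and 0 were called. Of the 18, 5 did not overlap upward, where 3.32% of all genes did so. Mmp13, a collagenase of bone whose promoter is a standard AP-1 target, was at 11.42, 11.70 and 11.64 in non-targeted and 12.91, 12.35 and 12.62 in targeted cells. The groups were well apart, with a log2 difference of 1.04 (SE 0.19, limma unadjusted p = 0.000642 and adjusted p = 0.7012). Timp1, an inhibitor of such proteases, differed by 1.01 (SE 0.36) and Col1a1, a bone collagen chain, by 1.08 (SE 0.45), and both were highest in targeted replicate 1, without which they differed by 0.65 and 0.51. Ccl2, a chemokine gene that AP-1 and NF-kB induce, was lower instead, at 8.58, 8.38 and 8.68 against 7.59, 8.21 and 7.97 (log2 difference -0.62, SE 0.20). Mmp13, Col1a1 and Ibsp are also in the osteoblast list, so the target list is not independent of that lineage.

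Markers of the cells themselves also differed between arrays, not always in the same way as the 10 genes. On targeted replicate 1 the mean deviation was 0.12 for CAR cell markers and -0.15 for the 10 genes. Cxcl12 was at 12.32, 12.65 and 12.63 in non-targeted and 12.32, 12.22 and 12.40 in targeted cells, and Dmp1 was at 6.91 to 7.51 against 9.89 to 11.28. All 12 CAR cell markers tested had lower means in targeted cells (median -0.32). The median was -0.23 without non-targeted replicate 2 and -0.19 without targeted replicate 2, with 11 of 12 lower in each case, and it was at most -0.25 without each of the other arrays. Of these markers, 9 of the 12 were highest in non-targeted replicate 2, the array that was also highest for 7 of the 10 AP-1 and immediate early genes. Neutrophil markers (12 listed, 10 tested, Elane and Ly6g dim) had summed intensities of 9069, 10502 and 14172 in non-targeted and 1158, 8170 and 11550 in targeted cells. Of the 10 tested neutrophil markers, 9 had a lower mean in targeted cells (median -1.14), and targeted replicate 1 had the lowest sum. Without targeted replicate 1, 6 of these 10 markers were lower and their median was -0.29. That array was also the lowest for 4 of the 10 genes (Fos, Fosb, Jund and Atf3), against 24.1% of all genes. Without it Fos differed by -0.25, Fosb by -0.42 and Dusp1 by -0.52. Of the macrophage markers (11 listed, 8 tested, Adgre1 and Mrc1 dim) 4 were higher and 4 lower. Their summed intensity without Vcam1, which is also a CAR cell marker, was 816 to 928 in non-targeted and 622 to 1088 in targeted cells, and with it 4367 to 5724 and 3881 to 4259. In bulk samples fewer cells of a type and less RNA per cell cannot be told apart, and the part of these cells, of dissociation and of the stromal markers in the lower AP-1 values was not tested.

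**Figure D4:**
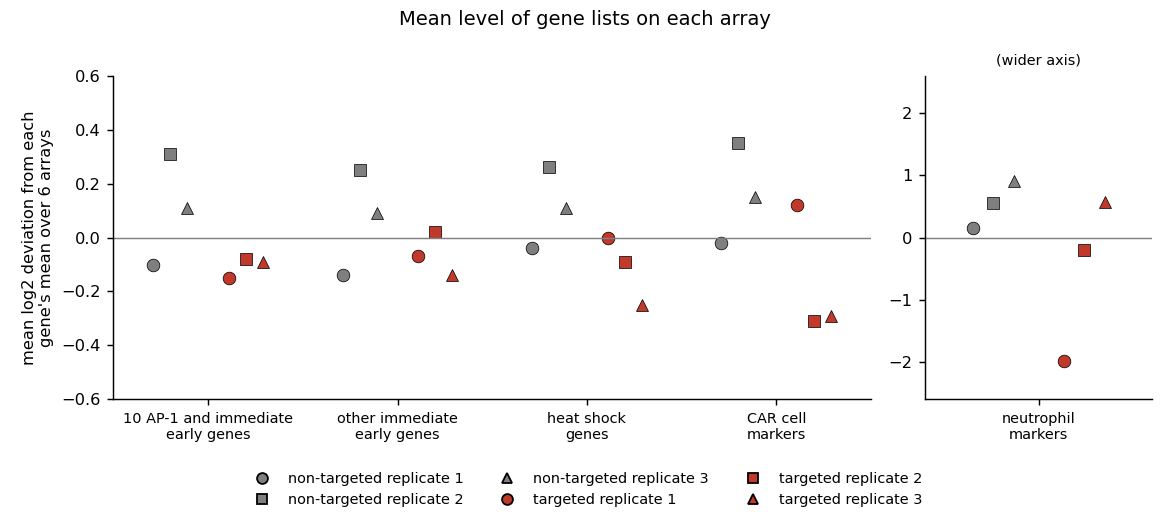
Mean log2 deviation of each gene list from its genes' means over the 6 arrays, 1 point per array, with neutrophil markers on a wider axis. Grey points are non-targeted and red points targeted arrays, and marker shapes give the replicate number. Non-targeted replicate 2 was highest for the 10 AP-1 and immediate early genes (0.31), other immediate early genes (0.25), heat shock genes (0.26) and CAR cell markers (0.35), while targeted replicate 1 was lowest for neutrophil markers (-1.99).

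The genes whose pattern over the 6 arrays was most like the mean pattern of the 10 were Phf8, Ints12, Lrrc29, Secisbp2l and Apln. Their root mean square difference from that mean pattern, after centring each gene, was 0.034 to 0.041 on the log2 scale. All 5 were highest in non-targeted replicate 2, which follows from choosing them by a pattern that peaks on that array. Ints12, for example, was at 7.33 there and at 6.91 to 7.21 on the others. None passed the test, as no gene did in this fit.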

How the data were processed

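RNA of 6 sorted samples was hybridised to 1 array each. The deposited values were array intensities per probe set on a linear scale, made by RMA (Affymetrix Expression Console 1.4, as named in the submitters' processing notes). RMA subtracts background and normalizes between arrays, which can compress small differences. The annotation used upstream is not given in the sources used here. Median intensities were 79.4 to 87.5, array pairs correlated at 0.909 to 0.963 over the genes tested, and precision is limited by having 3 arrays per group.

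The log2 of each intensity was taken here. Of 35556 probe sets, 21789 named 1 gene in the platform's annotation, 1621 several and 12146 were not listed. For 21698 of the 21789 the gene identifier was found in RefSeq (GRCm38.p6), and the symbol given there was used. The brightest probe set of each gene was kept, and the 33.3% of genes with the lowest means (log2 up to 6.00) were left out. A limma fit (version 3.58.1, R 4.3.3, lmFit and eBayes) over all 6 arrays with no covariate gave two-sided p-values, Benjamini-Hochberg adjusted over 13292 genes at 0.05. On simulated data for this comparison (13292 genes, 200 of them changed, 5 runs) it called 66.4% of genes changed 2-fold and 98.0% of those changed 4-fold. The simulated noise was independent between genes and arrays, without the differences that many genes share on 1 array. The 200 changed genes, at 2-fold to 16-fold, also made the Benjamini-Hochberg cutoff easier to reach than where few genes differ. For both reasons these percents can overstate what the fit could call here. In the real arrays Dmp1, 9.72-fold higher in targeted cells, had an adjusted p of 0.3844 (limma), where 100% of genes changed 8-fold were called in simulation.

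The members and gene lists were chosen with earlier results of these data known, so lists are described by counts and medians with no test. All 10 members are named, with up to 4 genes of each other list by smallest p, at least 1 in each direction, and 6 usual dissociation genes. Cell type lists served as array checks, with medians of 0.85 for osteoblast, -0.09 for macrophage, -0.01 for B cell, -0.04 for erythroid and 0.04 for endothelial markers. The alternatives were other filters, scalings, variance models, array weights, probe set rules, the replicate number as a block, leaving out each array, and 2 that separate arrays by Xist, added after seeing the data. The main fit did not pair arrays by number, because the labels do not say whether same-numbered arrays came from 1 mouse. Same-numbered arrays of the groups deviated from their group means with correlations of -0.256, -0.124 and 0.065. Deviations from a mean of few arrays are not independent of each other, so these values cannot show whether arrays shared a mouse. Xist was high on both arrays numbered 1 and on no other array, and pairing was not tested further.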

Additional observations from a re-analysis of the deposited data

Results flagged for a closer look

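For 4 of the 10 genes the arrays of the 2 groups lay in opposite order on the 4 arrays with low Xist and on the 2 arrays with high Xist, which hold 1 array per group. Targeted minus non-targeted was -0.85 on the arrays with low Xist and 0.59 on those with high Xist for Jun, -0.32 and 0.47 for Egr1, -0.24 and 0.02 for Fosl2, and 0.11 and -0.43 for Jund, all as log2 differences. Fosl1 also changed sign, at 0.25 and -0.42, but its groups overlapped on the arrays with low Xist. The difference between the 2 kinds of array was not tested. The share of all genes tested with such an opposite order was not counted, so it is not known whether 4 of 10 is more than usual.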

How the results depend on the processing

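Fos, Fosb, Fosl2, Jun, Junb and Dusp1 kept their direction in all 19 alternatives, and 0 of the 10 genes were called in any of them (limma, smallest adjusted p 0.229, for Fosb). Their median difference ran from -0.31 to -0.14 when 1 array was left out in turn. The groups of Fos overlapped with quantile normalization and with cyclic loess, and those of Dusp1 when arrays were centred on their median. Fosb overlapped with none of these scalings. Leaving out arrays or changing the variance model cannot make separated groups overlap. The direction of the 4 genes nearest to 0 turned. Atf3 was at 0.0024 with quantile normalization and 0.05 with array weights, Fosl1 at -0.01 and Egr1 at 0.03 with cyclic loess, and Jund at 0.03 with array weights and 0.11 on replicates 2 and 3 alone. In leave-one-out fits Atf3 ran from -0.16 to 0.11, Fosl1 from -0.11 to 0.15, Egr1 from -0.27 to 0.09 and Jund from -0.13 to 0.02. The median percent of genes with a smaller spread was 37.8 with quantile normalization and 32.4 when the Xist class was a covariate, and ran from 30.4 to 63.1 in leave-one-out fits. The cause was not tested. Over all genes 1 gene, Dmp1, was called with array weights, with the fixed replicate block and with the Xist class, against 0 otherwise. With the replicate number as a block, fixed or random, the median of the 10 genes was -0.21 and no member was called. A stricter filter on dim genes removed Fosl1. Signal over background limits Fosl1 and Atf3 most, whose values lie near the filter on dim genes.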
